A study of Mus musculus with 4 samples.

Results

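Transcripts of 36 genes that mark endothelial cells, the cells that line blood and lymphatic vessels, were followed library by library in sorted cells of the mouse dental follicle. The genes were chosen by symbol for their known roles in endothelial junctions, receptors and transcription factors; the rule itself uses no measured value. All 36 were found among the 23107 genes of the deposited tables. Of these, 26 had enough signal to be tested (10 or more scaled counts in 2 or more libraries), and 10 did not.

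Endothelial cells are held together by junction proteins such as the cadherin of Cdh5 and the immunoglobulin-family protein of Pecam1, and they grow and survive through receptors for VEGF (Kdr, Flt1, Flt4) and angiopoietins (Tek, with its partner Tie1). ETS and SOX family transcription factors keep the endothelial programme switched on. Developing teeth lie in a vessel-rich mesenchyme, and the dental follicle, the mesenchymal sheath around the tooth, carries vessels of its own.

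The cells came from mandibular molars at postnatal day 8. They were sorted for a tdTomato reporter that, per the labels, marks PTHrP+ dental follicle cells, after tamoxifen at postnatal day 3. The groups were Ptch1(+/-), called cHet, and Ptch1(-/-), called cKO, with 2 libraries each; Ptch1 encodes the receptor that restrains hedgehog signalling, and both groups carried the reporter and received tamoxifen. The driver of the recombinase, the sex of the mice and the number of mice in a library are not given in the sources used here, and no label states that the libraries of a group are from separate animals; the p-values reflect the spread between these libraries alone, and that spread may be technical. Libraries are named as in the tables: cHet_0, cHet_1, cKO_0 and cKO_1.

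A scaled count is a gene's count after the authors divided it by a factor of its library. Scaled totals lay between 69361760 and 71228342. From the commonest small value of each library, 1 read was taken as 0.81 scaled counts in cHet_0, 1.05 in cHet_1, 1.08 in cKO_0 and 1.13 in cKO_1. Ptch1 itself had cHet values of 12867 and 5438 and cKO values of 22420 and 23341; both cKO values are the higher ones. A gene-level value does not show whether an exon was deleted, so it does not check the genotype labels. The labelled cell type was looked at through transcripts of its own and of dental epithelium. Pthlh, which encodes PTHrP, stood between 8613 and 15879 in the 4 libraries, and the mesenchymal gene Prrx1 between 9282 and 14597. The dental epithelium genes Ambn and Amelx ran from 165646 to 976072 and from 275248 to 1334660. Krt14 and Epcam, of the same tissue, ran from 9079 to 83386 and from 620.6 to 4828. The share of follicle cells in the sort was not tested. A share of 31.3%, 37.9%, 35.3% and 35.1% of all genes was listed at 0 in cHet_0, cHet_1, cKO_0 and cKO_1.

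Promoter sequences of 4 of the genes are shown because they belong to the 2 patterns described below, Cldn5 and Gimap6 with values in both cKO libraries and Flt1 and Gja4 with high values in cKO_1. Each is the 250 bases before a RefSeq transcription start on GRCm38.p6, the assembly that mm10 names, read 5′ to 3′ on the strand of the gene. Capitals mark GGAA, the core bound by ETS factors, and its reverse complement TTCC. The Cldn5 sequence is chr16:18776597-18776846 on the plus strand, and those of Gimap6, Flt1 and Gja4 are chr6:48708245-48708494, chr5:147726012-147726261 and chr4:127314040-127314289, each on the minus strand.
Cldn5: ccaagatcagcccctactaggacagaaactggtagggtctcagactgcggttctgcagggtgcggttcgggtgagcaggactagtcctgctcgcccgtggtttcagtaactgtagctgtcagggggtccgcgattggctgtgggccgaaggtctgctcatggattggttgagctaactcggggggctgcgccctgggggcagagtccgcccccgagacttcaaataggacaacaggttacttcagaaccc
Gimap6: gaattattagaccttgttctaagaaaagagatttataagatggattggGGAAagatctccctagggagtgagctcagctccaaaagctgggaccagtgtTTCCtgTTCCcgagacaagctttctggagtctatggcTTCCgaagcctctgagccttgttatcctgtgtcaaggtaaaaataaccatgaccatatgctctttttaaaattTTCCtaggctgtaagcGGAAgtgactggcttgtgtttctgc
Flt1: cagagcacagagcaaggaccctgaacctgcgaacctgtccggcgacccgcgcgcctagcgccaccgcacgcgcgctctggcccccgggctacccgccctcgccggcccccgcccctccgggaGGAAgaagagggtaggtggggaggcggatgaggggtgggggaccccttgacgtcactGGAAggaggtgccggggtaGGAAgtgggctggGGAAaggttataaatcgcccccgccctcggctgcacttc
Gja4: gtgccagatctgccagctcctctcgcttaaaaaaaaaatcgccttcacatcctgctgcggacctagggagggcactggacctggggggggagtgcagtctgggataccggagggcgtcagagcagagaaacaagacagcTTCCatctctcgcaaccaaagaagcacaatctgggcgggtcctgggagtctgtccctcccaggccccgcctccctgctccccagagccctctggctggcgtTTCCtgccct
On both strands together GGAA occurred 0 times in the Cldn5 window, 6 times in that of Gimap6, 4 times in that of Flt1 and 2 times in that of Gja4. Genes of 1 pattern therefore included the highest and the lowest count of the 4. Windows of 21 of the genes, 27 in all, could be matched, and 92.6% of them held GGAA, against 93.5% of all 32841 windows of this length. The longer forms AGGAAG and CGGAAG, which both contain GGAA, were in 44.4% and 11.1% of these windows, against 29.5% and 13.6% of all windows. The SOX core ACAAT was in 29.6%, against 27.7%. A match is a description of letters and no evidence of binding.

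Endothelial transcripts were scarce in the sorted cells, and the cKO libraries differed from each other in most of them. The 36 genes summed to 183.1 and 292.3 per 1000000 scaled counts in cHet_0 and cHet_1 and to 236.4 and 655 per 1000000 in cKO_0 and cKO_1, so that the cKO_0 sum lay between those of the cHet libraries. Without the 9 genes at 100 or more scaled counts in every library, the sums were 30.42 and 26.78 in cHet and 45.55 and 324.8 in cKO. The cKO_0 sum was then above both cHet sums, for a set drawn up after the values were seen. In bulk samples more cells of a type and more RNA per cell cannot be told apart. The classical junction genes Pecam1, Cdh5 and Cldn5 and the transcription factor genes Sox17 and Sox7 were higher in each cKO library than in either cHet library. Of all genes tested, 18.0% had that order. Pecam1, Cldn5 and Sox17 reached 10 scaled counts in the cKO libraries alone, so being higher there was a condition of their being tested. Kdr, Tie1, Emcn, Erg and Icam2 are endothelial genes too and did not have that order. A further group, among them Vwf, Robo4, Gja4, Flt1 and Nos3, was high in cKO_1 and low in the other cKO library.

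In limma with Benjamini-Hochberg adjustment, 0 of the 26 tested genes were called higher and 0 lower, as were 0% of all 14297 genes tested in either direction; the lowest adjusted p among the 26 was 0.913. At an unadjusted limma p under 0.05, 4 were higher, against 1.54% of all genes tested, and 0 were lower, against 1.49%. These 4, Pecam1, Sox17, Gimap6 and Cldn5, are the same 4 genes that passed the low-value filter through the cKO libraries alone, so that a difference between the groups was a condition of their being tested. The groups did not overlap for 9 of the 26, higher in cKO, against 18.0% of all genes tested, and for 0 of the 26 lower, against 14.2%. The 9 were Pecam1, Cdh5, Esam, Cldn5, Eng, Aplnr, Sox7, Sox17 and Gimap6. Of these, Pecam1, Cldn5, Sox17 and Gimap6 had to be without overlap and positive, because they passed the filter through cKO alone. They are also in each count of genes without overlap given below. Of the 26, 23 had a positive log2 fold change (that of cKO less that of cHet, of log2(scaled count + 3)), against 56.3% of all genes tested. Their median was 1.77 against 0.12 over all genes; without cKO_1 it was 0.18 and without cKO_0 4.36. With 1 library left out, a group is 1 library and overlap is rarer for any gene. Of the 26, the groups then did not overlap, with higher cKO values, for 16 without cHet_0, against 46.7% of all genes tested, and for 14 without cHet_1, against 27.7%. Without cKO_0 it was 20 of the 26, against 34.9%, and without cKO_1 it was 11, against 35.6%. Called genes with 1 library left out were 1 of the 26 without cHet_0 (higher; 7.42% of all genes tested were called higher and 0.546% lower) and 0 of the 26 otherwise; leaving out cHet_1, 0% of all genes were called in either direction. With cKO_0 left out the shares of all genes called higher and lower were 0.0490% and 0.0350%, and with cKO_1 left out they were 0.0699% and 0.224%.

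**Figure D1:**
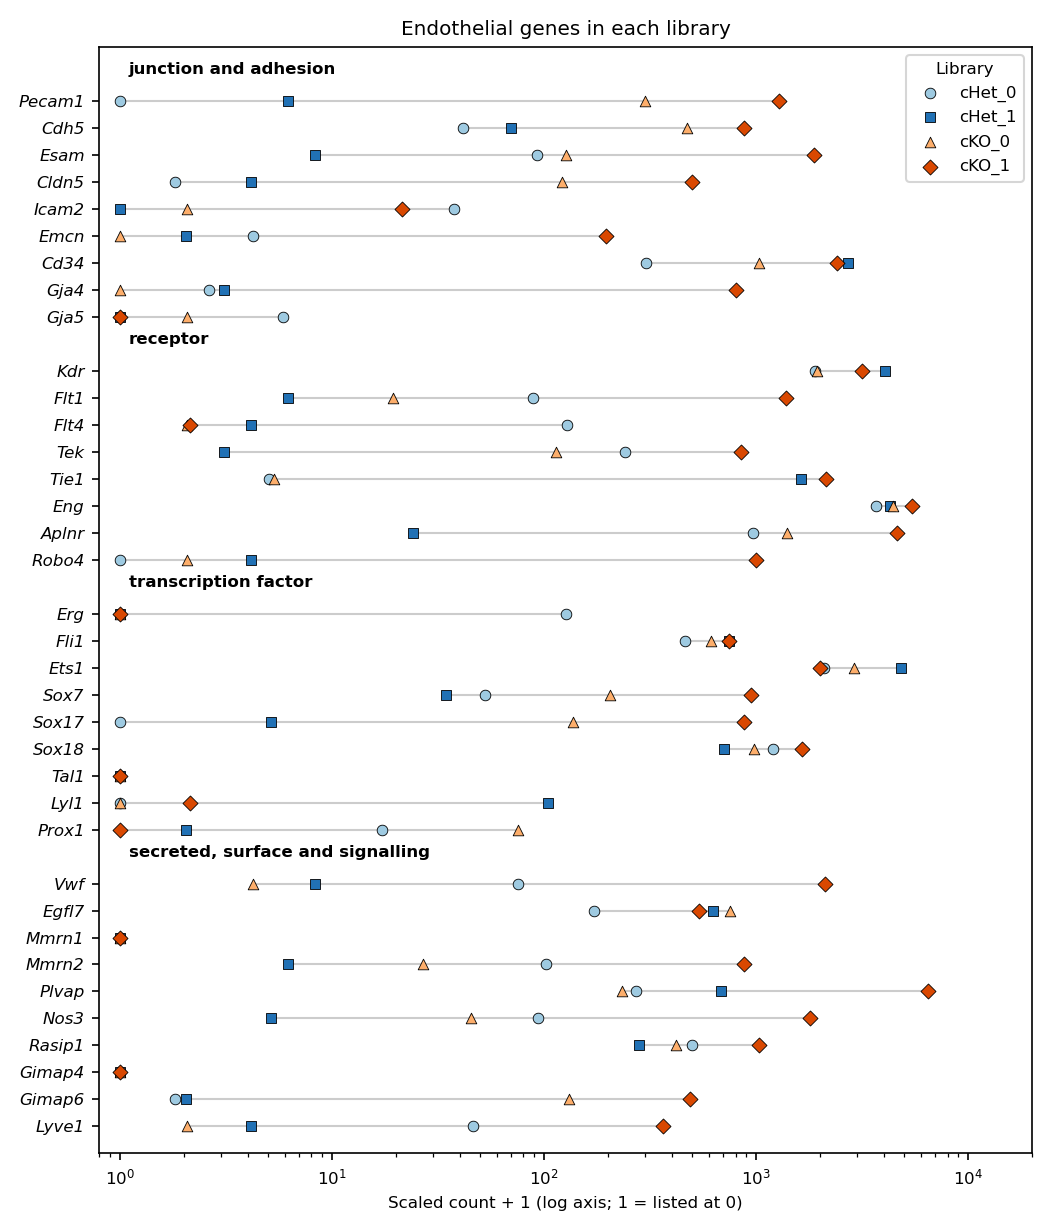
Scaled count plus 1 (x axis, log) of each of the 36 endothelial genes (y axis, grouped by role) in the libraries cHet_0, cHet_1, cKO_0 and cKO_1; a grey line joins the lowest and highest value. The cKO_1 library has the highest value for 23 genes, and the cHet and cKO values do not overlap for Pecam1, Cdh5, Cldn5, Sox7 and Sox17 among others.

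Of the 6 junction and adhesion genes tested, 4 had no overlap between the groups, each with higher cKO values, against 18.0% of all genes tested. Of these, Pecam1 and Cldn5 passed the filter through the cKO libraries alone, so the lack of overlap was a condition of their being tested. Pecam1 (chromosome 11, 106654217 to 106750628, minus strand), whose protein joins endothelial cells at their borders, was listed at 0 in cHet_0 and at 5.233 in cHet_1, against 299.5 in cKO_0 and 1278 in cKO_1. The value in cHet_1 stands for 5 reads, so the gene was close to undetected in both cHet libraries and plainly present in both cKO libraries. Its log2 fold change was 6.97 (SE 2.41), and it lay between 5.93 and 8.01 whichever library was left out. Cdh5 (chromosome 8, 104101625 to 104144511), which encodes VE-cadherin, the adhesion protein of endothelial adherens junctions, stood at 40.49 and 69.07 in the cHet libraries, against 470.8 and 873.7 in the cKO libraries. Both cHet values were low but above the floor of 3 reads, and the groups did not overlap (log2 fold change 3.53, SE 1.91). The tight junction gene Cldn5 (chromosome 16, 18776847 to 18778262) had cHet values of 0.81 and 3.14, that is 1 and 3 reads, and cKO values of 120.7 and 495.9. Its log2 fold change of 5.68 (SE 2.44) depends on the pseudocount, since the cHet values were at or under the floor of 3 reads.

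Other junction genes followed single libraries. Esam, an endothelial adhesion molecule, stood at 91.5 and 7.33 in the cHet libraries, against 126.1 and 1867. Its groups did not overlap, but the gap between cHet_0 and cKO_0 was small beside that between the cKO libraries, which differed 14.8-fold. The gap junction gene Gja4 (chromosome 4, 127311421 to 127314039), which encodes a connexin of arterial endothelium, was at 801.1 in cKO_1 and at 1.62, 2.09 and 0 in cHet_0, cHet_1 and cKO_0, and the sialomucin gene Emcn at 194 in cKO_1 and at 3.24, 1.05 and 0 in the same order. The second arterial connexin gene, Gja5, had at most 4.86 in any library and was not tested. Cd34, a surface sialomucin also found on blood progenitors and stromal cells, behaved otherwise, with cHet values of 302 and 2720 and cKO values of 1035 and 2395, and the groups overlapped. Icam2, an adhesion molecule of endothelium and leukocytes, had cHet values of 36.4 and 0 and cKO values of 1.08 and 20.4.

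Among the receptors, those for VEGF had unlike patterns. Kdr (chromosome 5, 75932827 to 75978458), the main signalling receptor for VEGF-A, had cHet values of 1900 and 4054 and cKO values of 1944 and 3145, the cKO values lying between the cHet values (log2 fold change -0.17, SE 0.56). Flt1, the decoy-like VEGF receptor gene (chromosome 5, 147561604 to 147726011), stood at 87.5 and 5.23 in the cHet libraries, against 18.3 and 1382. The cKO libraries thus differed 75.5-fold, and without cKO_1 the log2 fold change was -0.36 in place of 2.66. Flt4, the lymphatic VEGF receptor gene, stood at 127.9 and 3.14 in the cHet libraries, against 1.08 and 1.13, where each value is 1 read. Of the 36 genes it alone had lower values in both cKO than in both cHet libraries, and it was not tested.

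The angiopoietin receptor genes split between libraries in different ways. Tek (chromosome 4, 94739289 to 94874976), the receptor itself, had cHet values of 239.7 and 2.09 and cKO values of 113.1 and 849.9. Tie1 (chromosome 4, 118471191 to 118490061), its orphan partner, had cHet values of 4.05 and 1620 and cKO values of 4.31 and 2125. Tie1 was therefore high in 1 library of each genotype, near the floor in the other, and had a log2 fold change of 0.22 (SE 3.53) that was -3.87 without cKO_1 and 4.32 without cKO_0. No other gene of the 36 shared its pattern at the level of 100 scaled counts, which 0.504% of all genes tested showed.

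Eng, which encodes the TGF-beta coreceptor endoglin and is also expressed by mesenchymal stromal cells, had the narrowest range of the receptor genes, with cHet values of 3692 and 4283 and cKO values of 4428 and 5405. The groups did not overlap in scaled counts, by a small margin (log2 fold change 0.30, SE 0.36), and in FPKM they did, at 15.2 and 19.5 against 18.7 and 24.9. Aplnr (chromosome 2, 85136225 to 85139923), the apelin receptor gene of venous and sprouting endothelium, stood at 962.8 and 23 in the cHet libraries, against 1398 and 4616. It had the lowest p of the receptor genes (log2 fold change 4.0, SE 1.78). Without cHet_0 its log2 fold change was 6.61 and its adjusted limma p 0.0149, the 1 call among the 26 genes in any setting run, one in which 1061 of all genes tested were called higher; without cHet_1 it was 1.40. Robo4, an endothelial guidance receptor gene, was listed at 0, 3.14 and 1.08 in cHet_0, cHet_1 and cKO_0 and at 992.9 in cKO_1.

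The transcription factor genes fell into a broadly present and a patchy set. Ets1 (chromosome 9, 32636221 to 32757820), Fli1 and Sox18 were at 100 or more in every library; Ets1 and Fli1 are ETS genes also expressed in mesenchyme and in blood cells. Ets1 had cHet values of 2093 and 4828 and cKO values of 2908 and 1991, Fli1 stood at 461.5 and 743 against 608.7 and 746.7, and Sox18, a SOX gene of vessel development, at 1202 and 701.2 against 975 and 1639. In all 3 the groups overlapped, and the log2 fold changes were -0.40 (SE 0.55), 0.20 (SE 1.15) and 0.46 (SE 0.86). Its relatives differed: Sox17 (chromosome 1, 4490931 to 4497354), an arterial SOX gene, stood at 0 and 4.19 in the cHet libraries, against 135.7 and 878.3 (log2 fold change 6.24, SE 2.48), and Sox7 (chromosome 14, 63943673 to 63950732) at 51.8 and 33.5 against 203.6 and 941.8 (log2 fold change 3.30, SE 2.11).

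Both genes had no overlap between groups and a cKO_1 value 6.47 and 4.63 times that of cKO_0. For Sox17, which passed the filter through cKO alone, the lack of overlap was a condition of being tested. Erg, an ETS factor gene strongly expressed in most endothelium, did not follow them: it was at 126.3 in cHet_0 and at 0 in the other 3 libraries, cKO_1 included. Prox1, which specifies lymphatic endothelium, reached 74.3 in cKO_0 and was at 16.2, 1.05 and 0 in cHet_0, cHet_1 and cKO_1. Lyl1, a factor shared by endothelium and blood cells, was at 103.6 in cHet_1 and at no more than 1.13 elsewhere. Tal1, its close relative, was listed at 0 in all 4 libraries.

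Secreted, surface and signalling genes were the most one-sided toward cKO_1, where they summed to 13666 scaled counts against 1253 in cHet_0, 1606 in cHet_1 and 1607 in cKO_0. Plvap (chromosome 8, 71497765 to 71511752), the diaphragm protein gene of fenestrated vessels, made up much of this, with cHet values of 270.4 and 679.2 and cKO values of 231.6 and 6462. Vwf (chromosome 6, 125546774 to 125686679), the von Willebrand factor gene, had cHet values of 74.5 and 7.33 and cKO values of 3.23 and 2122. Nos3, the endothelial nitric oxide synthase gene, was at 93.1 and 4.19 against 44.2 and 1794, and the matrix protein gene Mmrn2 at 101.2 and 5.23 against 25.9 and 874.9. For these 4 genes cKO_0 lay below or among the cHet values, so the groups overlapped although their cKO means were higher. Without cKO_1 the log2 fold changes of Plvap, Vwf, Nos3 and Mmrn2 were -0.88, -2.18, 0.84 and -0.02, in place of 1.51, 2.02, 3.47 and 2.44.

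Gimap6, a GTPase gene of lymphocytes and endothelium (chromosome 6, 48701582 to 48708225), had no overlap between the groups, with cHet values of 0.81 and 1.05, 1 read each, and cKO values of 130.4 and 487.9 (log2 fold change 6.03, SE 2.43). Gimap6 passed the filter through cKO alone, so it had to be without overlap. Its relative Gimap4 was listed at 0 in all 4 libraries, as was the lymphatic gene Mmrn1. Egfl7, a secreted protein gene of vessels, was at 170.9 and 627.9 against 753.1 and 534.5, and Rasip1, a junction-regulating adaptor gene, at 497.2 and 278.4 against 418 and 1026; both overlapped between groups. Lyve1, a hyaluronan receptor gene of lymphatic endothelium and some macrophages, reached 364.2 in cKO_1 and was at 45.3, 3.14 and 1.08 in cHet_0, cHet_1 and cKO_0. Of the lymphatic genes Prox1, Lyve1, Flt4 and Mmrn1, 3 were thus highest in 3 different libraries, and the fourth was listed at 0.

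The 2 cKO libraries were unlike each other in these genes. Among the 26 tested genes, 23 had a higher value in cKO_1 than in cKO_0, against 47.4% of all genes tested, and 20 were highest of all 4 libraries in cKO_1, against 27.0%. Highest in cHet_0, cHet_1 and cKO_0 were 1, 3 and 2 of the 26, against 17.8%, 29.7% and 25.4%. In 6 of the 26, Esam, Flt1, Mmrn2, Nos3, Plvap and Vwf, the cKO_1 value plus 3 was at least 8 times the highest of the other libraries plus 3, against 0.930% of all genes tested. By presence at 100 scaled counts or more, 7 of the 36 were present in cKO_1 and no other library, 7 in both cKO and neither cHet library, 9 in all 4 and 6 in none; the other 7 had other combinations of libraries. Genes present in 1 library or none often fail the filter, so the shares over tested genes are compared with tested members alone. These were 4 of the 26 in cKO_1 alone (2.63% of all genes tested), 7 in both cKO libraries (1.12%), 9 in all 4 (69.5%) and 2 in none (4.3%). The 7 of both cKO libraries were Pecam1, Cdh5, Esam, Cldn5, Sox7, Sox17 and Gimap6, and the 7 of cKO_1 were Emcn, Gja4, Flt1, Robo4, Vwf, Nos3 and Lyve1. Of those in both cKO libraries, Pecam1, Cldn5, Sox17 and Gimap6 passed the filter through cKO alone and had to be higher there. The patterns were drawn up after the values were seen. Within cHet, 13 of the 26 were lower in cHet_1 than in cHet_0, against 57.9% of all genes tested.

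**Figure D2:**
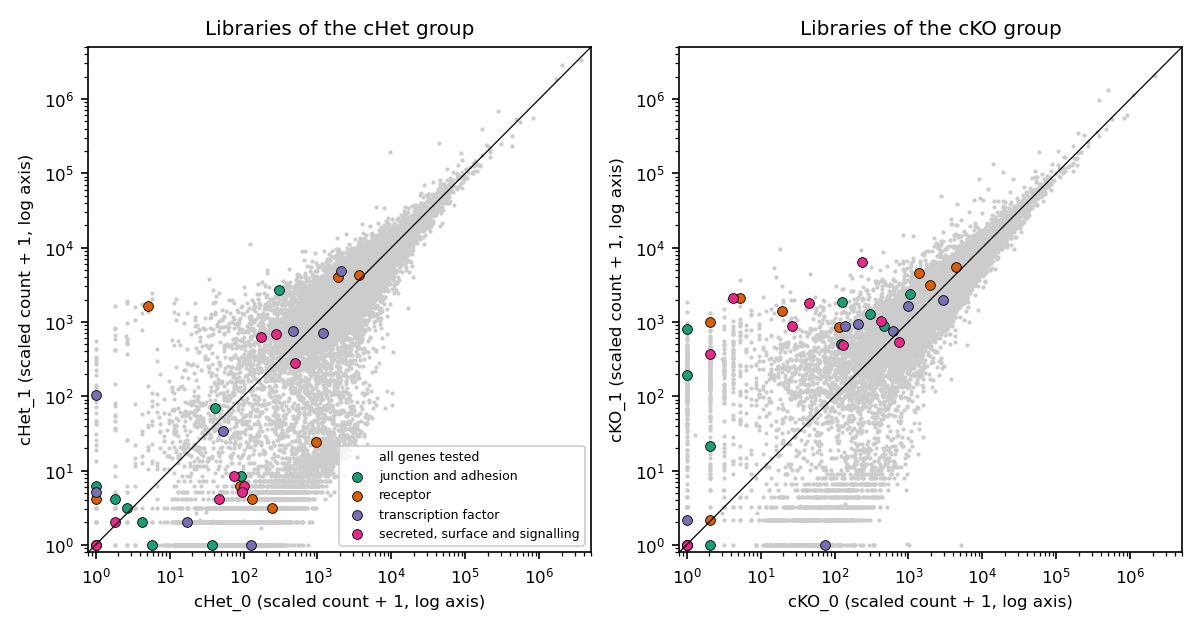
Scaled counts plus 1 (both axes log) of cHet_1 against cHet_0 (left) and of cKO_1 against cKO_0 (right); grey points are the 14297 genes tested, coloured points the 36 endothelial genes by role, and the line marks equal values. On the right 28 of the 36 coloured points lie above the line and 4 below, and on the left 16 lie above and 17 below.

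Low values in single libraries beside high ones in others were frequent. Of 14 endothelial genes that reached 1000 scaled counts in some library, 6 (42.9%) were under 10 in another, namely Pecam1, Esam, Flt1, Tie1, Vwf and Nos3. Over all 10376 genes that reached 1000, the share was 2.97%. The 6 endothelial genes peaked at values from 1278 (Pecam1) to 2125 (Tie1), while the 10376 include far higher genes such as Col1a1. The shares were thus not matched for level. The number of the 36 genes under 10 was 13 in cHet_0, 22 in cHet_1, 14 in cKO_0 and 8 in cKO_1, and the number at 1000 or more was 4, 5, 5 and 14.

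Levels can be compared between genes on the FPKM scale, which the authors made relative to transcript length. In cKO_1 the highest FPKM values were 62.2 for Plvap, 27.5 for Sox18, 24.9 for Eng, 13.1 for Esam and 12.1 for Aplnr. In cHet_0 they were 15.2 for Eng, 12.4 for Sox18 and 6.15 for Ets1, while Plvap stood at 2.06 and Esam at 0.76. Eng and Sox18 were thus among the leading genes in both, while Plvap led in cKO_1 and not in cHet_0. An FPKM of at least 1 was reached by 10, 11, 15 and 26 of the 36 genes in cHet_0, cHet_1, cKO_0 and cKO_1. In FPKM the groups did not overlap for 8 of the 26 tested genes, with higher cKO values, against 11.5% of all genes tested. Each of the 8 is also among the 9 without overlap in scaled counts, and the other is Eng. Among the 8, Pecam1, Cldn5, Sox17 and Gimap6 passed the low-value filter through the cKO libraries alone.

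**Figure D3:**
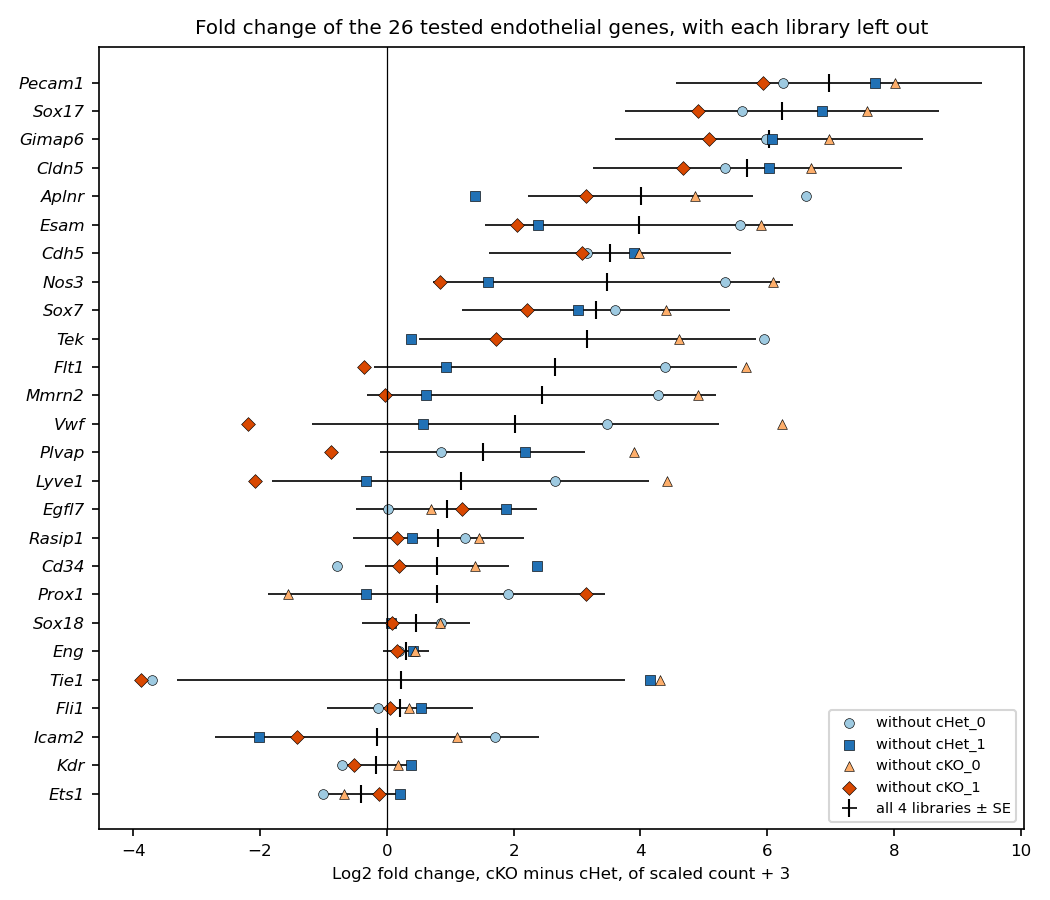
Log2 fold change (x axis, cKO less cHet, of the scaled count plus 3) of the 26 tested endothelial genes; the black tick and bar give the value and its SE with all 4 libraries, and coloured symbols the value without 1 library. Cdh5 lies between 3.08 and 3.97, and Plvap, Vwf and Tie1 lie on both sides of 0. Pecam1, Sox17, Gimap6 and Cldn5 also stay above 3, but they passed the filter through the cKO libraries alone and had to be higher there.

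Further vessel genes were taken from a separate list. Of 31 matched genes 22 were tested, and 14 had positive log2 fold changes (median 0.60), against 56.3% of all genes tested. No overlap was found for 4 with higher cKO values (a share near the 18.0% of all genes tested) and for 1 with lower cKO values, against 14.2%. In limma 0 were called at an adjusted or an unadjusted p under 0.05. The summed level was 414.2, 419.4, 389.7 and 536.7 per 1000000 in cHet_0, cHet_1, cKO_0 and cKO_1. Calcrl, an adrenomedullin receptor gene, had cHet values of 271.3 and 7.33 and cKO values of 504.2 and 952. Sox13, a SOX family gene, had cHet values of 558.7 and 141.3 and cKO values of 1294 and 1551, and the homeobox gene Hhex 20.2 and 2.09 against 129.3 and 362. These 3 had the lowest p of the list. Highest in cKO_1 were 11 of the 22 tested genes, against 27.0% of all genes tested.

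Genes for ligands and coreceptors that act on endothelium formed a second list, with levels from 0 in every library (Gdf2 and Bmp10) to 34962 (Slit3 in cKO_0). Of 21 matched, 18 were tested and 11 had positive log2 fold changes (median 0.34), against 56.3% of all genes tested. In limma 0 passed after adjustment, and at an unadjusted p under 0.05 there were 2 higher and 0 lower, against 1.54% and 1.49% of all genes tested. The 2 were Slit3, a Robo ligand gene, with cHet values of 16425 and 8747 and cKO values of 34962 and 23135 (log2 fold change 1.25, SE 0.36), and the chemokine gene Cxcl12, at 12874 and 9025 against 26385 and 17566 (log2 fold change 1.0, SE 0.31). In both, cKO_0 was the higher cKO library, the reverse of the order seen for most endothelial genes. Vegfa, the ligand gene for Kdr and Flt1, stood at 5701 and 2745 against 5283 and 9398, and Vegfc, the ligand gene for Flt4, at 2691 and 750.3 against 5599 and 2888; the Vegfa groups overlapped and those of Vegfc did not.

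Markers of other cells were summed in the same way. Leukocyte and macrophage genes (20 matched) summed to 48.2, 150.1, 34.8 and 322 per 1000000 in cHet_0, cHet_1, cKO_0 and cKO_1, highest in cKO_1 like the endothelial genes, and 13 of the 19 tested were highest there. Its first 4 genes did not share an order of libraries. The pan-leukocyte gene Ptprc was at 0.81, 0, 62.5 and 76, and the macrophage receptor gene Csf1r at 227.5, 8.37, 52.8 and 2151, both highest in cKO_1. The macrophage genes Emr1 (now Adgre1), at 36.4, 203, 0 and 2.27, and Cd68, at 139.3, 1771, 91.6 and 806.8, were highest in cHet_1. Red cell and platelet genes (13 matched) summed to 63.3, 49.5, 71 and 203.5 per 1000000 and Schwann cell genes (12 matched) to 343.7, 230.5, 412.5 and 632.1 per 1000000 in the same order. Both were thus also highest in cKO_1. At 0 in the 4 libraries were 0, 2, 2 and 0 of the leukocyte genes, 4, 6, 2 and 4 of the red cell and platelet genes and 2, 1, 2 and 1 of the Schwann cell genes. Pericyte and smooth muscle genes (15 matched), which mark the cells wrapped around vessels, ranged less, from 1526 per 1000000 in cHet_1 to 2001 in cKO_1. Their sum was thus highest in cKO_1 too, and 7 of the 12 tested were highest there, against 27.0% of all genes tested. The pericyte gene Rgs5, at 570.9, 2.09, 115.3 and 543.5, was highest in cHet_0.

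Of the Schwann cell list 10 of 11 tested genes had positive log2 fold changes (median 2.90), with 4 higher at an unadjusted limma p under 0.05, namely S100b, Gfra3, Prx and Mbp. Of all genes tested, 56.3% were positive and 1.54% were higher at that level. Gfra3, at 0 and 2.09 in the cHet libraries and 286.6 and 474.3 in the cKO libraries, passed the filter through cKO alone and had to be higher. Positive values were found for 13 of 19 leukocyte genes (median 1.33), 7 of 9 red cell and platelet genes (median 2.08) and 11 of 12 pericyte and smooth muscle genes (median 0.47), with 0 of them past that level. In every list 0 genes were called after adjustment.

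The follicle mesenchyme list (12 matched) summed to 112598 and 121548 per 1000000 in cHet and 80890 and 77843 in cKO. The collagen genes Col1a1, Col1a2 and Col3a1 held most of this sum in every library, so it does not give the share of follicle cells. The groups did not overlap for 6 of the 12 with lower cKO values, against 14.2% of all genes tested. They did not overlap for 1 with higher cKO values, against 18.0%. Of the 12 genes 3, Runx2, Twist1 and Twist2, were positive (median of the 12 -0.34), against 56.3% of all genes tested. At an unadjusted limma p under 0.05, 3 were lower, the matrix genes Dcn, Lum and Postn, against 1.49% of all genes tested. The dental epithelium list (12 matched) summed to 8407, 20905, 13951 and 39250 per 1000000 in cHet_0, cHet_1, cKO_0 and cKO_1, again highest in cKO_1. In it 6 of 11 were positive (median 0.02), a share near that of all genes tested, and 1 was lower at that level, Epcam. The endothelial sum, from 183.1 to 655, was thus small beside both. The part of any of these cell types, of library complexity or of the sort in the endothelial values was not tested.

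**Figure D4:**
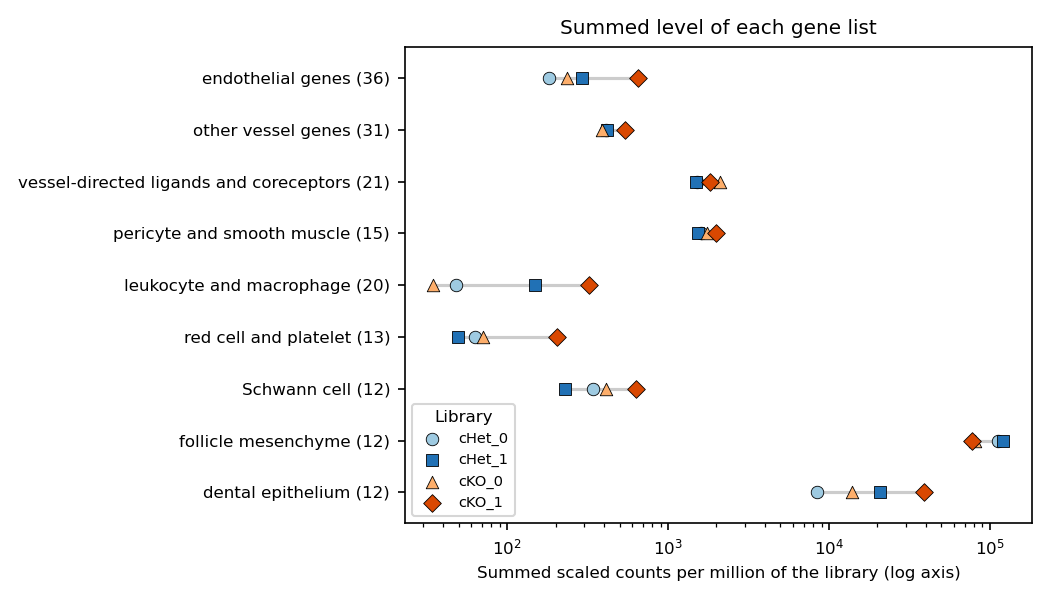
Summed levels (x axis, log, scaled counts summed and given per 1000000 scaled counts) of the endothelial genes and 8 other gene lists (y axis, number of matched genes in brackets) in the libraries cHet_0, cHet_1, cKO_0 and cKO_1. The endothelial genes run from 183.1 to 655 per 1000000, with cKO_1 highest. Every other list is also highest in cKO_1, except follicle mesenchyme and the ligands and coreceptors.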

How the data were processed

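RNA of sorted tdTomato+ dental follicle cells was amplified with a SMART-Seq v4 kit and made into Nextera XT libraries, per the labels' protocols. The submitters' processing notes name mm10 as the build. They list, without roles, Bowtie2 (2.2.1) and TopHat2 (2.0.13), HTSeq, Cufflinks with Cuffdiff, DESeq2 and FastQC. It is not known from these sources whether counting was strand-specific, and antisense genes may therefore share reads with their partners.

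The main values are scaled counts, a signal unit that the authors deposited, made by dividing each library's gene counts by 1 factor; the sources used here do not give how that factor was set. The authors also deposited FPKM values, used to compare levels between genes and as an alternative. Another 4 tables hold 16 columns of per-sample values whose names correspond to none of the labels; they were left out. Table columns count libraries from 0 and sample titles from 1, so each column was given a group and not a sample.

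A count model was foreseen if the tables held raw counts. Those used do not, and limma (version 3.58.1 in R 4.3.3, mean-variance trend on) was run on log2(scaled count + 3) instead. Group was its only term, and the 14297 genes with 10 or more scaled counts in 2 or more libraries entered. Tests were two-sided, with Benjamini-Hochberg adjustment over all of these genes and a threshold of 0.05, and the SE is limma's moderated one. Fold changes on this scale understate those of low genes. With 2 libraries a group, the spread between libraries limits precision (median SE 0.74 over all genes and 2.42 over the tested endothelial genes), and reads of amplified cDNA are not independent molecules. The members, gene lists, test and alternatives were chosen with earlier results of these data known. All 36 genes are reported. Of each further list up to 4 genes with the lowest p or the defining markers were named, with 2 exceptions. Gdf2 and Bmp10 were added after their values were seen, and more genes of the follicle mesenchyme list were named than this rule gives. Gene coordinates are from GENCODE vM21, 1-based, and promoter windows from RefSeq (GRCm38.p6); windows that overlap an annotated exon were not printed.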

Additional observations from a re-analysis of the deposited data

How the results depend on the processing

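In each setting with all 4 libraries, 0 of the 36 genes were called in limma, higher or lower. The number of all genes called was 0 higher and 0 lower in the scaled-count settings; it was 2 higher and 3 lower with log2(FPKM + 1), and 1 higher and 1 lower with log2(FPKM + 0.1). Leaving out each library in turn gave 0 to 1061 genes called higher and 0 to 78 lower over all genes (most without cHet_0), 0 to 1 endothelial gene called higher (Aplnr, without cHet_0), 11 to 23 of the 36 without overlap (11 to 20 of the 26 tested, against 27.7% to 46.7% of all genes tested), and a median log2 fold change of 0.18 (without cKO_1) to 4.36 (without cKO_0). Leaving out a library, the lone library of its group is taken to vary like the other group. Over all single-gene values in alternative settings, 315 kept direction and side of the threshold, 1 passed it and 18 changed sign. With pseudocount 1 the log2 fold change of Icam2 was 0.12 in place of -0.15. Leaving out 1 library changed the sign of 12 genes, whose ranges were Cd34 -0.79 to 2.37, Fli1 -0.14 to 0.54, Icam2 -2.01 to 1.70, Tie1 -3.87 to 4.32, Ets1 -1.0 to 0.20, Kdr -0.71 to 0.38, Lyve1 -2.08 to 4.41, Prox1 -1.56 to 3.13, Flt1 -0.36 to 5.67, Mmrn2 -0.022 to 4.91, Plvap -0.88 to 3.90 and Vwf -2.18 to 6.23. The cause of these changes was not tested. The table columns cannot be tied to the replicate numbers of the sample titles, so the pairing by title was not run. A replicate block on the number that ends the column names, chosen after seeing the data, called 0 genes higher and 0 lower and gave the same median log2 fold change of 1.77, and 4 endothelial genes were at an unadjusted limma p under 0.05, as without it. Nothing in the labels says that these numbers pair libraries; over the 14297 genes tested the differences cHet_1 less cHet_0 and cKO_1 less cKO_0 had a correlation of 0.049. The planned count test was not run because the usable tables hold scaled values and not whole reads. The read numbers given above are scaled counts divided by the value taken for 1 read in that library. Not every value is a whole number of reads by this measure, such as the red cell gene Hba-a1 at 0.025 in cKO_1. Genes with a few reads in a library, such as Cldn5 and Gimap6 in cHet, have fold changes that depend on the pseudocount.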

Other observations

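The deposited tables differed in which library was highest for 2 of the 33 endothelial genes above 0. Changes of order below the highest library were not counted. Ets1 was highest in cHet_1 in scaled counts (4828) and highest in cKO_0 in FPKM (8.40, against 5.40 in cHet_1). Fli1 was highest in cKO_1 in scaled counts (746.7) and highest in cKO_0 in FPKM (2.96, against 1.20 in cKO_1). For Fli1 the FPKM per scaled count differed 3.68-fold between libraries and for Ets1 2.63-fold, where the median over the 9933 genes with at least 100 scaled counts in all 4 libraries was 1.79-fold and the 95th percentile 4.16-fold. Levels of these ETS genes by library therefore depend on the table used. Pecam1, Cdh5, Cldn5, Sox7, Sox17 and Gimap6 were higher in each cKO library than in either cHet library, in either table. Of all genes tested, 18.0% had that order in scaled counts and 11.5% in FPKM. Pecam1, Cldn5, Sox17 and Gimap6 passed the low-value filter through cKO alone and had to be higher there in scaled counts. Both tables come from the same libraries, so they are not independent.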
